A study of Mus musculus with 2 samples.

Results

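Binding of the transcription factor STAT5 was examined near 49 genes of the interferon response and of antigen presentation, named by a fixed list of symbols. Of these, 28 were among the 4934 genes to which the deposited table assigns at least 1 STAT5 region, and the other 21 had no assigned region. The 28 genes shared 52 distinct regions out of 5703. They were grouped by role as 21 antiviral effectors, 4 nucleic acid sensors, 10 GTPases, 4 genes of the PARP and nuclear body group, 6 antigen-processing genes and 4 interferon receptor chains.

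The measurement was chromatin immunoprecipitation followed by sequencing, which recovers and sequences the DNA bound by a protein, here with an antibody to STAT5 (STAT5A per the extraction protocol). Both groups were CD8 T cells of OT-I mice, whose transgenic receptor recognises an ovalbumin peptide, on the C57BL/6 strain. In both, cells were transferred into recipient mice, primed there with the SIINFEKL peptide plus agonists of CD134 and CD137, and sorted from spleen 4 days later. In the control group (1 library) these cells received no further cytokine, and in the IL-2 group (1 library) they were treated in culture with IL-2 at 0.5 µg/ml for 1 hour. The sources used here do not give the age of the mice or whether cells of several mice were pooled. The table records binding and no RNA, so the labelled cell type could not be checked against marker expression. Each group being a single library, nothing could be checked against replicates and no difference was tested.

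Interferons are secreted proteins that tell cells of an infection. Type I interferons bind the receptor made of Ifnar1 and Ifnar2 and act on a DNA element called the interferon-stimulated response element. Interferon gamma, a product of activated CD8 T cells, binds Ifngr1 and Ifngr2 and acts on elements of the form TTCNNNGAA, the same palindrome that STAT5 dimers recognise. The genes they induce include antiviral effectors, GTPases that attack pathogen-containing vacuoles, and the proteasome subunits and transporters that prepare peptides for MHC class I.

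The sequences below are those of the 6 members with a region position inside a matched RefSeq promoter window, which runs from 250 bases before to 50 after a gene start. No promoter was matched for Zbp1 and Parp14, whose regions also lay at their starts, so counts of motifs leave these members out. The 6 were taken for their region position and not for a motif, and TTCNNNGAA is marked in capitals. The sequences come from RefSeq on GRCm38.p6, the assembly that mm10 represents. They are written 5′ to 3′ on the gene's strand and end at the base before the start. Ifi35 is the exception, since its match lies just after the start and only a short stretch around it is given.
Igtp, chr11:58199306-58199555, plus strand: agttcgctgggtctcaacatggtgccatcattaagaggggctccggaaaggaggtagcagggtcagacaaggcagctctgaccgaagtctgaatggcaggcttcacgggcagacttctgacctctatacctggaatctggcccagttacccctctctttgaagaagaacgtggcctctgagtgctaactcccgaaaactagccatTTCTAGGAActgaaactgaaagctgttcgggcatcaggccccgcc
Irgm2, chr11:58214727-58214976, plus strand: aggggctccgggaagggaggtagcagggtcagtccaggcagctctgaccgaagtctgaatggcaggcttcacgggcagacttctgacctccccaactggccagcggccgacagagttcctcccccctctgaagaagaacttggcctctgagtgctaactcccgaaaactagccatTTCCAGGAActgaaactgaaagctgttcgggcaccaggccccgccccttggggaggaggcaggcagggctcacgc
Gbp7, chr3:142530086-142530335, plus strand: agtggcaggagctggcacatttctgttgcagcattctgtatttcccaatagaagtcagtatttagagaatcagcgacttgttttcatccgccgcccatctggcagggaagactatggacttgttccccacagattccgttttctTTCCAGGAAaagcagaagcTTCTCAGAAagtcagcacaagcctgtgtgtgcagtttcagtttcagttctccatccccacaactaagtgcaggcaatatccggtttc
Gbp5, chr3:142496684-142496933, plus strand: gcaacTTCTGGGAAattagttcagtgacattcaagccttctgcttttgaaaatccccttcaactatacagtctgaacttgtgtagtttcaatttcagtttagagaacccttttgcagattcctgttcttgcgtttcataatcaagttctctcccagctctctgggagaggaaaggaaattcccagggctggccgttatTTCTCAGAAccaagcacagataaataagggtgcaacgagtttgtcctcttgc
Psmb8, chr17:34197945-34198194, plus strand: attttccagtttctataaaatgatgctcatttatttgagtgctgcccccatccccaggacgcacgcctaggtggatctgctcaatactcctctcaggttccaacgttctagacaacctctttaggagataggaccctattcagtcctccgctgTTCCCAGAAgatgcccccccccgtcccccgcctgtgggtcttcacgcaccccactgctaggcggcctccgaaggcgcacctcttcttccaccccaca
Ifi35, chr11:101448408-101448435, plus strand: cagaagcagaaTTCACAGAAatgaaagt

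TTCNNNGAA, which is its own reverse complement, was found in 6 of these 6 promoters. The background share was 46.2% of the 437 promoters with a region position inside, and 8.3% of all 32851 promoters. The stricter form TTCCNGGAA was found in Irgm2 and Gbp7, against 13.3% of promoters with a region inside and 1.15% of all. The table places regions on a coarse grid, with 4317 of the 5703 positions at multiples of 32, so distances to a motif are approximate. Positions lay 26 bases from the centre of the nearest match at Psmb8, 27 at Gbp5, 25 at Ifi35, 58 at Gbp7, 106 at Irgm2 and 139 at Igtp. Over the 202 promoters with both a region and a match, the median of this distance was 36 bases. A match describes letters in the window and is not evidence of a bound site.

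The promoters of Igtp and Irgm2, neighbouring members of the immunity-related GTPase family, were alike around the match. Counted from 1 at the first T of the Igtp match, their single difference within the 9 bases was T4C, Igtp having the first base and Irgm2 the second. The 35 bases before and the 24 after were the same in both. In both, a match to the core of the interferon-stimulated response element, which reads GAAA, any 2 bases and GAAA again, began 2 bases after the palindrome. Reads from such alike stretches may fit both genes, and the sources used here do not say how they were placed, so the heights at these close copies are uncertain.

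This GAAA repeat, searched on both strands, was common in the promoters of members whether or not a region was assigned. It was found in 11 of 23 promoters of members with a region and in 7 of 18 of those without, against 3.44% of all promoters (matches can overlap each other). Among promoters with a region position inside, it was found in 4 of the 6 of members and in 4.81% over all genes. TTCNNNGAA was found in 10 of 23 promoters of members with a region and in 4 of 18 of those without. The latter were of Ifit2, Oas1a, Isg20 and Ifnar1. The promoter of Isg15, a ubiquitin-like modifier strongly induced by type I interferon, is shown as an example of the GAAA repeat. As a single promoter, Isg15 does not stand for the other members without a region. Its promoter had 3 overlapping matches, in capitals, and no TTCNNNGAA.
Isg15, chr4:156200819-156200938, minus strand: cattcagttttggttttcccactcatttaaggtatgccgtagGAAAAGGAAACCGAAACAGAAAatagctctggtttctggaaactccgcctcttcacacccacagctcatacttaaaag

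By count, regions were assigned to 9 of 10 GTPases, 8 of 21 antiviral effectors and 4 of 6 antigen-processing genes. The remaining groups had 1 of 4 sensors, 3 of 4 of the PARP and nuclear body group and 3 of 4 receptor chains. In all, 28 of 49 members (57.1%) had a region, against 19.1% of the 21900 protein-coding genes of the RefSeq table. Mx1 and Mx2, counted among the 49 and without a region, are transcribed pseudogenes in RefSeq and so fall outside that class. Several members are neighbours that share regions, so these counts do not rest on independent genes. The members were also chosen with earlier results of these data known, so their share is not an independent comparison with 19.1%.

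For each gene the table gives the mean peak height of each library over the regions assigned to it, in signal units, and the highest single peak. Pairs of values below give control first and IL-2 second. Log2 ratios below compare IL-2 with control after 5 was added to both heights, which understates the fold of the heights. The ratio was at least 2 for 27 of the 28 members with a region, against 83.8% of all 4934 genes, Ifitm2 being the exception. Genes were listed for an interval called in the IL-2 library, as all 4934 were, so ratios favour IL-2 by selection. An interval was called in the control library for 12 of all 4934 genes (0.243%) and for 0 of the 28 members, which at so low a share tells nothing about the members. The members' median control height was 5 (range 3 to 10), equal to the median of 5 over all genes. Their median IL-2 height was 35 (range 12 to 63), beside 20.75 over all genes. The median log2 ratio was 1.87 for members and 1.42 for all genes. The scaling between libraries is not stated, and the size of every ratio depends on it. With both libraries set to equal medians over the table, 21 of the 28 members were higher in the IL-2 library, beside 58.7% of all genes, and 4 had a ratio of at least 2, beside 11.9%. The 7 that turned to the control side were Bst2, Ifitm2, Irgm1, Parp14, Psmb8, Psmb9 and Tap1.

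**Figure D1:**
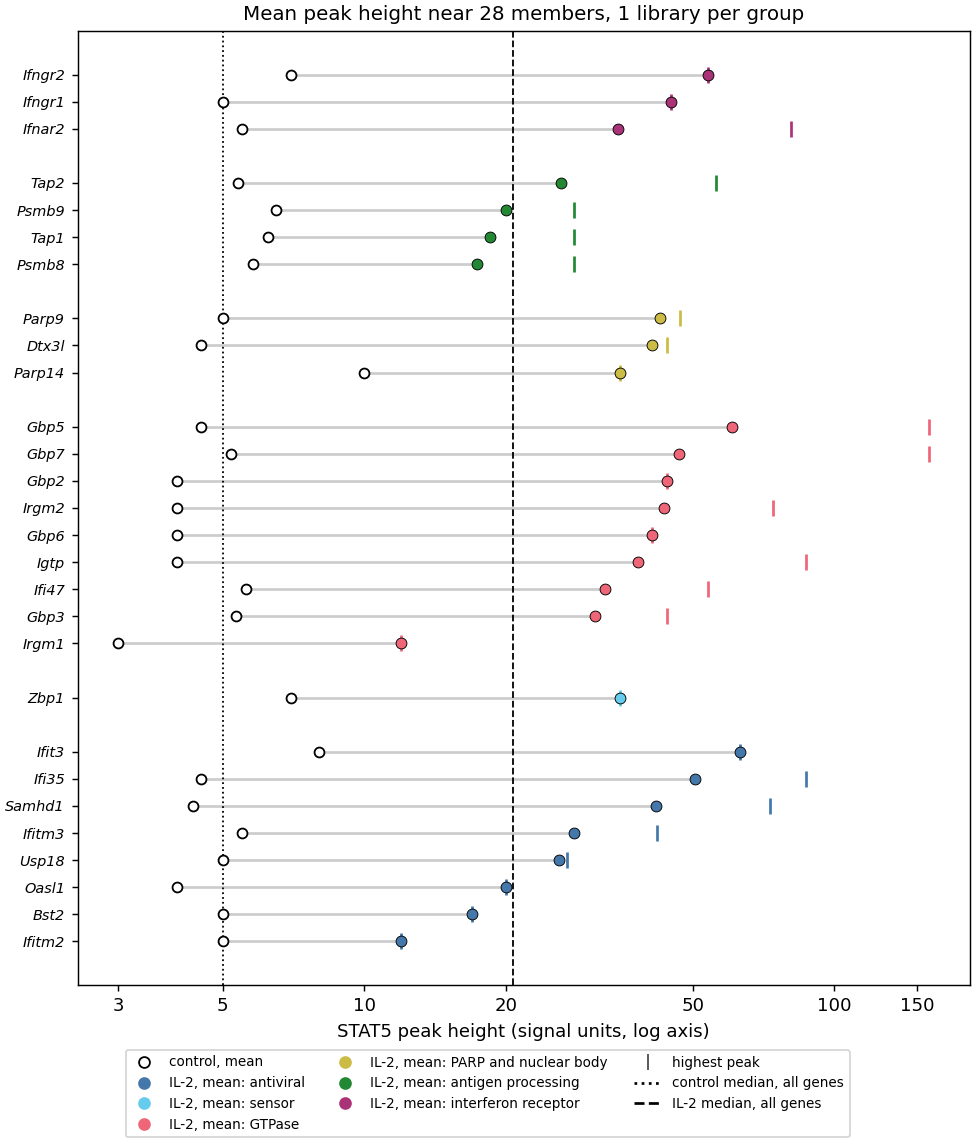
Mean STAT5 peak height near each of the 28 members (signal units, log axis), with control as open points, IL-2 as filled points coloured by role, and the highest peak as a tick. Dotted and dashed lines mark the medians of all 4934 genes, 5 in control and 20.75 with IL-2. The IL-2 points run from 12 at Ifitm2 and Irgm1 to 63 at Ifit3, and 3 of the 4 antigen-processing genes sit left of the dashed line.

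The GTPases had a median IL-2 height of 41 and a median log2 ratio of 2.34. The guanylate-binding proteins (GBPs) are large interferon-induced GTPases that coat vacuoles and bacteria. Gbp5, which also promotes inflammasome assembly, had 4 regions with control and IL-2 means of 4.5 and 60.5 (log2 ratio 2.79). Gbp7 had 5.2 and 46.8 over 5 regions. Gbp3 had 5.33 and 31 over 3 regions, and Gbp2 had 4 and 44 at a single region 663 bp upstream of its start. These 4 genes lie in 1 cluster on chromosome 3, where 9 distinct regions spread over 126 kb.

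Both Gbp5 and Gbp7 had a highest peak of 159. They share regions at 142530176, which is 162 bp upstream of the Gbp7 start, and at 142532512, which lies 2174 bp inside Gbp7. The table does not determine whether 1 of these shared regions held the peak. Those regions are 33242 and 35578 bp from the start of Gbp5, so its mean joins its own upstream regions, 214 and 2950 bp away, with regions nearest to Gbp7. Gbp3 shared 2 of its regions with Gbp7 as well, and its highest peak was 44. Gbp6 belongs to a second GBP cluster, on chromosome 5, and had 4 and 41 at 1 region that lay 7374 bp past its end.

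The immunity-related GTPases (IRGs) are smaller and act on the vacuoles of intracellular parasites. Irgm2 had means of 4 and 43.5 over 2 regions, 177 bp upstream and 1023 bp inside the gene. Their heights were 74 and 13, in an order that the table does not fix. Igtp had 4 and 38.2 over 6 regions, 2 of which are those of Irgm2. Of the other 4, the region 4391 bp inside Igtp had heights of 2 and 12, and the 3 upstream regions, 5892, 1156 and 180 bp from the start, had IL-2 heights that sum to 130. Because the highest peak of Igtp was 87 and that of Irgm2 was 74, the peak of 87 was among those 3 upstream regions.

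Ifi47, another IRG, had 5.6 and 32.6 over 5 regions, from 5455 bp upstream to 6705 bp inside the gene, and the table assigns all 5 to Olfr56 as well. Upstream and inside refer to the table's gene model, and the RefSeq model of Ifi47, which starts at 49076587, contains all 5 positions. Irgm1, which regulates the other IRGs, was the lowest of the GTPases, with 3 and 12 at a region 750 bp upstream (log2 ratio 1.09). The Irgm1 promoter held the GAAA repeat and no TTCNNNGAA. The same was found for Gbp2, which had 4 and 44, and for Gbp3, which had 5.33 and 31. For all of these the region positions lay outside the promoter windows, so the motifs do not describe those regions. Iigp1, an effector IRG on chromosome 18, had no assigned region, and the nearest region of the table was 1714 kb away.

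**Figure D2:**
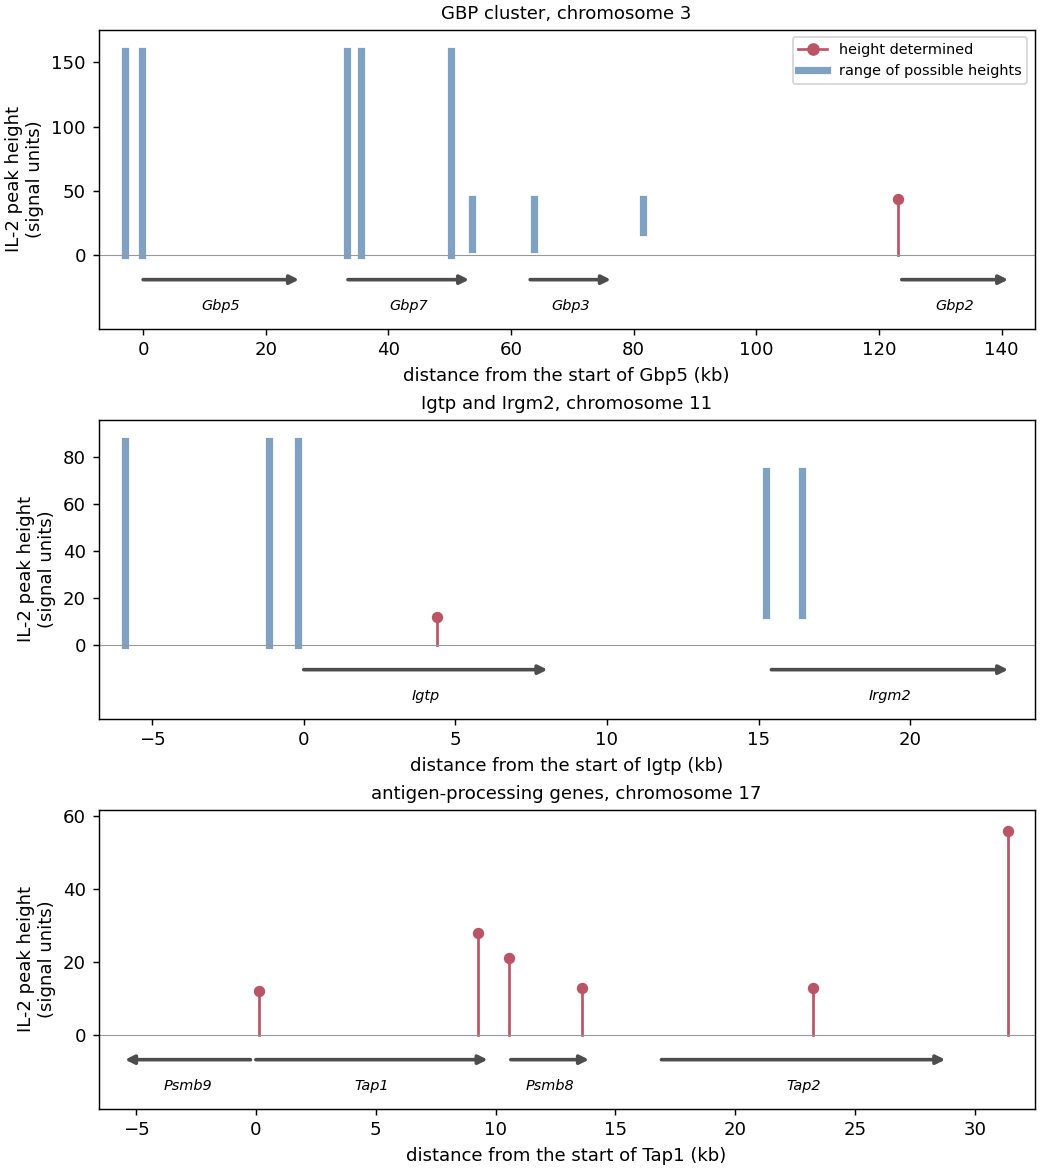
IL-2 peak heights (signal units) of the regions at 3 clusters, by distance from the start of Gbp5, Igtp or Tap1 (kb), with genes as arrows in the direction of transcription. Points are heights that the gene means and highest peaks determine, and thick bars are the ranges of possible heights where they do not. All 6 heights at the antigen-processing locus are determined, from 12 at the shared start of Tap1 and Psmb9 to 56 past the end of Tap2.

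The antigen-processing genes with a region were 4 neighbours on chromosome 17, within the MHC. Psmb8 and Psmb9 encode catalytic subunits of the immunoproteasome, and Tap1 and Tap2 the paired chains of the transporter that carries peptides into the endoplasmic reticulum. Together they had 6 distinct regions over 31.2 kb, of which 5 were assigned to more than 1 of them. Their median IL-2 height was 19.25 and their median log2 ratio 1.09, the lowest of the 6 roles, and with equal medians Tap1, Psmb8 and Psmb9 turned to the control side. The antiviral effectors had 27 and 1.64 on the same measures. These medians are over genes, so a shared region counts more than once. With each region counted once, the median determined IL-2 height was 17 for antigen processing (6 of 6 regions determined). It was 18.5 for antiviral effectors (8 of 13) and 26.5 for GTPases (4 of 22), so most GTPase regions are left out. Over all regions with a determined IL-2 height the median was 18, close to the values for antigen processing and antiviral effectors. The groups were not tested against each other, and the 4 antigen-processing genes are not independent.

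Psmb9 had a mean of 6.5 in control and 20 with IL-2, Tap1 6.25 and 18.5, and Psmb8 5.8 and 17.4. Tap2 was higher with IL-2, at 5.4 and 26.2. The single heights show where that difference arose. The region at 34187696, 140 bp inside Tap1 and 366 bp upstream of Psmb9, which are transcribed away from each other, had an IL-2 height of 12. Within the end of Tap1 the height was 28, just before the start of Psmb8 it was 21, and within Psmb8 and within Tap2 it was 13 each. The highest, 56, lay at 34218944, which is 2623 bp past the end of Tap2 and was assigned to no other member. It was also assigned to Gm15821, which is not a member and whose start was nearer, 4485 bp away. The start of Gm15821 was also the nearest to the region within Tap2, at 3643 bp. Of the control heights only that within Tap2, 4, is determined.

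Nlrc5 and Ciita, the transactivators of MHC class I and class II genes, had no assigned region. A region of 9330175E14Rik at 94439824 on chromosome 8 does fall inside the RefSeq model of Nlrc5, with an IL-2 height between 4 and 17, but the table did not assign it to Nlrc5. The region nearest to Ciita was 108 kb away, near Clec16a.

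Antiviral effectors had a listed share of 38.1%, the lowest of the 3 larger groups. Ifit3, which binds viral RNA in a complex with Ifit1, had the highest mean of any member, 8 in control and 63 with IL-2, at a region 4727 bp inside the gene. Its neighbours Ifit2 and Ifit1 had none, and the nearest regions lay 11.7 and 33.3 kb from their gene bodies. Ifi35, a signalling regulator, had 4.5 and 50.5 as the mean of very unlike regions. The region 36 bp inside Ifi35, whose sequence is printed above, had 5 and 87 (log2 ratio 3.20). The other, 5884 bp upstream, had 4 and 14 and lay 283 bp inside Rpl27, a ribosomal protein gene.

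Samhd1, an enzyme that depletes deoxynucleotides and so restricts retroviruses, had 4.33 and 41.7 over 3 regions, the nearest 662 bp inside the gene, with a highest peak of 73. Usp18, which removes ISG15 from proteins and restrains the type I receptor, had 5 and 26, with heights of 25 and 27 at regions 7602 bp upstream and 699 bp past its end, in an order not determined. Bst2 tethers budding virions at the cell surface and had 5 and 17 at a region 355 bp upstream. In the Bst2 promoter, the stricter palindrome TTCCAGGAA began 136 bases before the RefSeq start, yet the region position lay outside that window.

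For the remaining antiviral members the regions lay past the gene end. The interferon-induced transmembrane proteins block the entry of viruses by fusion. Ifitm3 had 5.5 and 28 over regions 2902 and 10230 bp past its end, with IL-2 heights of 42 and 14. Ifitm2 had 5 and 12 at a region nearest to Ifitm5 and within Athl1, and was the only member with a ratio under 2 (log2 ratio 0.77). Oasl1, a member of the oligoadenylate synthetase family, had 4 and 20 at a region 6 bp inside 2210016L21Rik and 18968 bp from its own start. Oas1a, Oas2, Oas3, Oasl2, Mx1, Mx2, Isg15, Isg20, Rsad2, Ifi44 and Ifitm1 had no assigned region.

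Distances from these absent members to the nearest region varied widely. Rsad2, which encodes the radical enzyme viperin, lay 12.7 kb from a region at its neighbour Cmpk2 with 4 and 16. For the Oas genes on chromosome 5 the nearest region was 117 kb from Oas2, 139 kb from Oas3 and 283 kb from Oas1a, and for Mx1 and Mx2 it was 486 and 388 kb away. Over all 21 absent members, the nearest region was within 50 kb of the gene body for 9 and beyond 100 kb for 11. The 9 include Nlrc5, whose RefSeq model contains a region. No such count was made for other genes without a region, so these are not read as near or far. The table holds regions near genes only, so these distances are to regions of listed genes.

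Among the sensors, Zbp1, which detects left-handed nucleic acid, had 7 and 35 at a region 86 bp upstream of its start. Ifih1, Ddx58 and Dhx58, the RIG-I-like receptors of double-stranded RNA, had no assigned region. The PARP group had 2 of its 4 regions within 1 kb of a member's start. Parp14, a mono-ADP-ribosyltransferase, had 10 and 35 at a region 22 bp inside the gene, the highest control height of any member. Parp9 and Dtx3l encode partners in 1 ubiquitin ligase complex and lie on opposite strands with their first bases overlapping. They share a region with 6 and 38 at 35938976, 51 bp inside Dtx3l and 506 bp inside Parp9. Each had a second region that was nearer to another gene. That of Dtx3l, with 3 and 44, lay 67 bp inside Gm10237, and that of Parp9, with 4 and 47, lay 563 bp upstream of Kpna1. Sp100, a nuclear body protein, had no assigned region.

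Of the receptor chains, Ifngr2 had 7 and 54 at a region 8566 bp upstream, and Ifngr1 had 5 and 45 at a region 6346 bp inside the gene. Ifnar2 had 5.5 and 34.75 over 4 regions with a highest peak of 81. The regions 6095 bp upstream and 305 bp inside Ifnar2 had IL-2 heights of 81 and 25, in an order not determined, and those past its end, within Il10rb, had 21 and 12, likewise without a fixed order. Ifnar1, the partner chain, had no assigned region, and the nearest lay 24.2 kb away at A930006K02Rik.

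**Figure D3:**
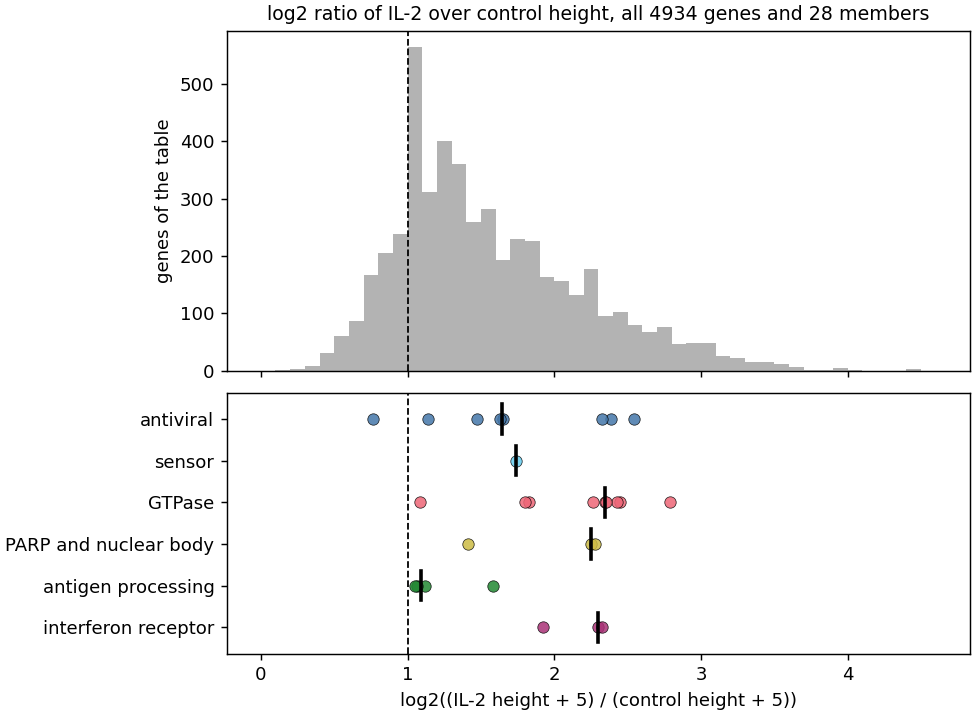
Histogram of the log2 ratio of IL-2 over control height for all 4934 genes (upper panel) and the ratio of each of the 28 members by role (lower panel, points, with the group median as a bar). The dashed line marks a ratio of 2. Medians are 2.34 for GTPases, 1.64 for antiviral effectors and 1.09 for antigen-processing genes, beside 1.42 for all genes.

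By place, 17 of the 52 regions (32.7%) lay within 1 kb of a member's start, and 22 (42.3%) within 1 kb of the start of any listed gene, against 27.5% of all 5703 regions. GTPases held 8 of the 17, with a region within 1 kb for 8 of the 9 listed, Gbp6 being the exception. For Ifi47 this holds for the table's gene model and not for the RefSeq one. The share of all listed genes with a region that close was not computed. Antiviral effectors had 3 such regions among 13, and antigen-processing genes 2 among 6. A region lay inside a member for 20 of the 52, a count without a share over all regions beside it and so not read as high or low. For 9 of the 52 the nearest listed start was not that of a member, and for Oasl1, Parp9, Psmb9, Tap2 and Ifitm2 no region was nearest to their own start. Regions assigned to more than 1 gene made up 69.2% of members' regions and 30.1% of all regions, and 12 of the 52 were shared among members.

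**Figure D4:**
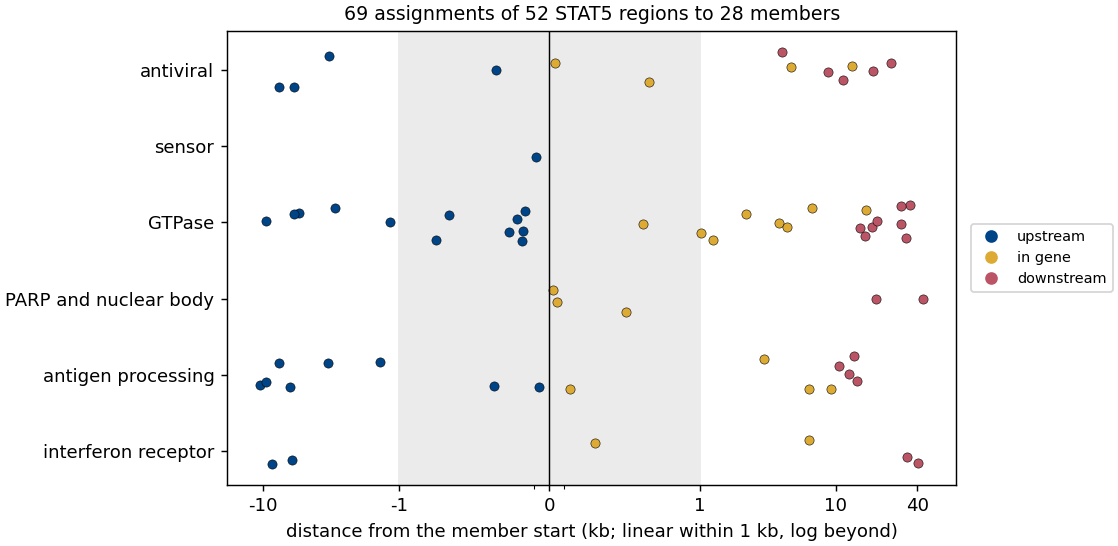
Signed distance of each region from the start of each member to which it was assigned (kb, linear within 1 kb, shaded, and log beyond), by role and coloured by place. The 69 assignments come from 52 regions, since some belong to several members. The GTPase row holds 8 points in the shaded band, and the antiviral row 3.

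Both heights could be determined for 20 of the 52 regions, with a median log2 ratio of 1.85 and a ratio of at least 2 for 18. Over all regions of the table, both heights were determined for 2458, with a median of 1.32 and a ratio of at least 2 for 80.3%. The highest determined IL-2 heights among members' regions were 87 at the start of Ifi35, 63 inside Ifit3, 56 past Tap2 and 54 upstream of Ifngr2.

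Other genes of the pathway were counted in lists that do not contain the members, to be read beside the 19.1% of protein-coding genes with a region and the 83.8% of listed genes with a ratio of at least 2. The lists were chosen with earlier results of these data known and were not tested against each other. Interferon signalling genes were listed for 11 of 15, all 11 with a ratio of at least 2, and a median log2 ratio of 2.50. Their log2 ratios ran from 1.14 to 3.29, the latter at Socs1, a feedback inhibitor of cytokine signalling. Of the interferon regulatory factors, Irf1 had 5.5 and 22.5, Irf8 5.5 and 41, Irf2 5.5 and 66, and Irf9 5 and 89. Other interferon-stimulated genes were listed for 18 of 41, with 17 at a ratio of at least 2 and a median of 2.18. Gbp4, in the chromosome 5 cluster with Gbp6, had 7 and 126 at a region 6142 bp upstream, and Gbp11 had 4 and 67.5. The IRG gene Tgtp1 had 4 and 36.5. Tgtp2 was listed at 0 in control and 30 with IL-2, at a region also assigned to Olfr56. A control height of 0 was listed for only 2 of all 4934 genes. How reads were placed is not stated, so this 0 is not read as absence of binding.

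Genes of MHC class I and peptide loading were listed for 7 of 19, with 5 at a ratio of at least 2 and a median log2 ratio of 1.07. H2-D1, a classical class I heavy chain, had 5 and 12, and H2-M3 6 and 11. Psme1 and Psme2, the subunits of the proteasome activator PA28, shared their regions and had 5.5 and 17 each. The higher of those regions, 22 with IL-2, lay 18 bp inside Rnf31. Tapbpl, which edits peptides on class I molecules, had 4 and 25. Its regions were nearer to other genes, 180 bp inside E130112N10Rik and 227 bp inside Cd27. Of 8 MHC class II genes, 0 were listed. Adaptors of nucleic acid sensing were listed for 4 of 7, with 3 at a ratio of at least 2, the highest being Tbk1, a kinase that activates IRF3, with 3 and 42.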

How the data were processed

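STAT5 ChIP-seq was analysed from 1 control and 1 IL-2 library. The deposited file lists genes with STAT5 regions assigned to them, and the authors give peak heights in it as signal (non-negative). BWA and mm10 were used, per the submitters' processing notes. The sources used here name no peak caller, read extension, depth or scaling between libraries, so counting error is unknown. Interval names in the deposited table carry the library in which each region was called. No per-sample column of another sample was present (0).

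The members and lists were chosen with earlier results of these data known. Every listed member with a region is named. Among the other pathway genes, 1 is not reported here. Log2 ratios used a pseudocount of 5 and a ratio rule of 2. Region positions were computed from gene start and distance. Single heights were solved as whole numbers from gene means and highest peaks by integer programming (SciPy 1.17.1). In artificial data built on the same rules, the set heights were recovered where only 1 value was possible. That checks the solver and cannot show that the rules hold for the deposited values. Control means leave out regions at 0, as the table's own values show, and the solution allowed for this. Promoters came from RefSeq (GRCm38.p6), with 36 of 49 members matched and 41 promoters in all. Alternatives were pseudocounts of 1 and 10, ratio rules of 1.5 and 4, equal medians, the highest peak, nearest genes only and a limit of 5 kb. The interferon-stimulated response element core was searched as a GAAA repeat with 2 free bases between. Python 3.11.15, pandas 2.3.3 and NumPy 2.4.6 were used.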

Additional observations from a re-analysis of the deposited data

How the results depend on the processing

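No paired analysis was possible because single libraries were compared. Of the members, 27 reached a ratio of 2 or more, and 4 did so with both libraries scaled to equal medians, where 11.9% of all genes had such a ratio. The count was 13 with a ratio rule of 4, met by 23.1% of all genes, and stayed within 1.5 times under the other settings. The members' median log2 ratio was 1.87. With other pseudocounts it was 2.40 (pseudocount 1) and 1.49 (pseudocount 10), with equal medians 0.42, with each gene's highest peak in place of its IL-2 mean 2.34, and 2.26 for the 23 members nearest to a region. It was 1.85 over the 20 regions with both heights determined, a setting added after seeing the data. Equal medians shift the median of all genes by -1.28 by construction. In that setting 21 of the 28 members stayed above control, beside 58.7% over the table. The log2 ratio turned negative for Ifitm2 (-0.52), Tap1 (-0.36), Psmb8 (-0.34), Psmb9 (-0.32), Parp14 (-0.20), Bst2 (-0.20) and Irgm1 (-0.032). The 17 regions within 1 kb of a member's start became 29 within 5 kb. The 28 members with a region became 23 when only the nearest gene counted and 22 within 5 kb of the start. Depth is unknown, so an absent region shows only that the table assigns none.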
